A study of Mus musculus with 2 samples.

Results

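Heart valves and the cushions they form from share part of their gene programme with tendon and cartilage, and 9 genes of that programme were read here in cells of the Tie2Cre lineage of Tbx20 mutant and control mouse hearts. The genes were chosen by symbol: the transcription factors Scx and Sox9, the tendon protein gene Tnmd, the aggrecan gene Acan, the collagen genes Col2a1, Col9a1 and Col11a1, and the matrilin genes Matn2 and Matn4. All 9 were among the 18193 genes on the array, with 15 probe sets that named only that gene. A probe set is the group of short oligonucleotides that reads 1 transcript.

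The mutant cells came from Tie2Cre;Tbx20 loxP/- hearts and the control cells from Tie2Cre;Tbx20 +/loxP hearts, both at embryonic day 12.5, with 1 array per genotype. Both genotypes carry the Tie2Cre transgene and a floxed Tbx20 allele. Where Cre has acted, mutant cells keep 0 working Tbx20 alleles and control cells 1, and the null allele of the mutant is present in all of its cells. Tie2Cre acts in endothelium, in endocardium and its cushion mesenchyme, and in blood, and live cells of the lineage were sorted by gating out the blood markers CD41, CD45 and Ter119. The sources used here give neither the floxed exons nor whether embryos were pooled. The values are MAS5 signals, a linear brightness per probe set. No value has a replicate, no test between genotypes was possible, and every difference is between these 2 arrays.

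In the embryonic valve, endocardial cells turn into cushion mesenchyme, which later lays down a layered matrix of collagens and proteoglycans. Sox9 is a transcription factor needed for cartilage and for growth of the cushions, and with Sox5 and Sox6 it switches on Col2a1, Acan and other cartilage genes. Scx is a basic helix-loop-helix factor of tendon progenitors that binds the E-box motif and is also needed for valve matrix, and Tnmd, a membrane protein of mature tendon, lies downstream of it. Collagen II forms the main fibril of cartilage, collagen XI lies within that fibril and collagen IX on its surface, while matrilins link fibrils and aggrecan.

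Promoter windows of these genes were read from RefSeq on build GRCm38.p6, each from 250 bases before to 50 bases after a transcript start. Of the 9 genes, 5 had an entry, with 7 windows: Tnmd, Acan, Col9a1, Col11a1 and Matn4. Scx, Sox9, Col2a1 and Matn2 had no entry. Col9a1 and Matn4 are shown because they had lower signal in the mutant and both have a pair of annotated starts. The Col9a1 windows are chr1:24177360-24177659 and chr1:24194953-24195252 on the plus strand, and the Matn4 windows are chr2:164405111-164405410 and chr2:164404769-164405068 on the minus strand. Capitals mark E-boxes (CANNTG).
Col9a1 upstream start: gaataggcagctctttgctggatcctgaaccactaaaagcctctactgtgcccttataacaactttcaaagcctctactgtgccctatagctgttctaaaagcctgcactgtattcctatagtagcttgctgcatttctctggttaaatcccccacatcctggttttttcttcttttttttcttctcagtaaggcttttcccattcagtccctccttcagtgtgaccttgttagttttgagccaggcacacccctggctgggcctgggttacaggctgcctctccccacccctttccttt
Col9a1 downstream start: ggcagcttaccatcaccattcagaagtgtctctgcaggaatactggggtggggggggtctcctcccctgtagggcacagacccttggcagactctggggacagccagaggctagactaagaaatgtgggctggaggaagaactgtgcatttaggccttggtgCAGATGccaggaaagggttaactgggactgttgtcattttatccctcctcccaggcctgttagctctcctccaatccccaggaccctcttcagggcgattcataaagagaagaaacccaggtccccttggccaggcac
Matn4 upstream start: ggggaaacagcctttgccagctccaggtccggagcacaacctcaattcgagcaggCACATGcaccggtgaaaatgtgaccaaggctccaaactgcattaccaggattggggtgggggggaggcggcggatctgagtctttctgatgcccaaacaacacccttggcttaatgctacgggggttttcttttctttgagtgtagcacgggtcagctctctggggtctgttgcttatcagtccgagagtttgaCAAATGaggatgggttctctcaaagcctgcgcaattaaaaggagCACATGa
Matn4 downstream start: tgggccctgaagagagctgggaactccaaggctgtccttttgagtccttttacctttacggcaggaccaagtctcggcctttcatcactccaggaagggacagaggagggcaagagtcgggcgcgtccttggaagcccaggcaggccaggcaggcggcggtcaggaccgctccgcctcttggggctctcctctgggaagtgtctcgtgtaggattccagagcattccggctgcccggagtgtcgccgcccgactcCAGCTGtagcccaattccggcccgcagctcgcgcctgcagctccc
The motifs searched on both strands were the E-box CANNTG, the SOX core ACAAT and the T-box core AGGTGT, and no match in the windows of these genes overlapped another motif. The upstream window of Matn4 held 3 E-boxes and its downstream window held 1. The downstream window of Col9a1 held 1 E-box, whose first base lies 88 bases before the start, and its upstream window held 0. Over all 32851 promoter windows in the table, 72.3% held an E-box, against 4 of the 7 windows here. The SOX core was in 31.0% of all windows and in 1 of the 7, that of Tnmd, and the T-box core in 13.7% of all windows and in 0 of the 7. These matches are a description of the letters and the arrays bear no measurement of binding.

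For gene values, a floor was set at the median signal of an array's non-control probe sets, 82.4 in the mutant and 91.3 in the control, and lower signals were raised to it. The brightest of a gene's probe sets, by mean log2 signal over both arrays, stood for the gene. A gene counted as measured where that probe set was above the floor on both arrays, as 10665 genes did. The targeted gene, Tbx20, gave 6416, 5262 and 4245 on its 3 probe sets in the mutant and 7638, 6128 and 7050 in the control, log2 ratios of mutant over control of -0.25, -0.22 and -0.73. Without the position of the floxed exons, they may say nothing about the deletion. The Gapdh signal at the 3' end over that at the 5' end, which reflects RNA quality, was 1.64 in the mutant and 2.27 in the control, while the same ratio for Actb was 0.998 in the mutant and 0.989 in the control. The part of RNA quality in the values below was not tested. The median log2 ratio of all measured genes was -0.01 (SD 0.38 over genes).

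Scx, Col2a1 and Matn4 had lower signal in mutant cells by more than 2-fold, Col9a1 was lower by less, and Sox9 was nearly level. Of the 9 genes, 7 were measured, 6 of them lower and 1 higher in the mutant, and their median log2 ratio was -0.69. At least 2-fold lower were 3 of these 7 and at least 2-fold higher 0, against 1.46% and 0.647% of all measured genes. Lower by any size were 51% of all measured genes. No test stands behind these counts. Tnmd and Acan were below the floor on both arrays and are left out of the counts and the median. With a pseudocount in place of the floor, which takes in all 9 genes, the median was -0.30, and with the floor at the 75th percentile, where 3 genes were measured, 1 was at least 2-fold lower.

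**Figure D1:**
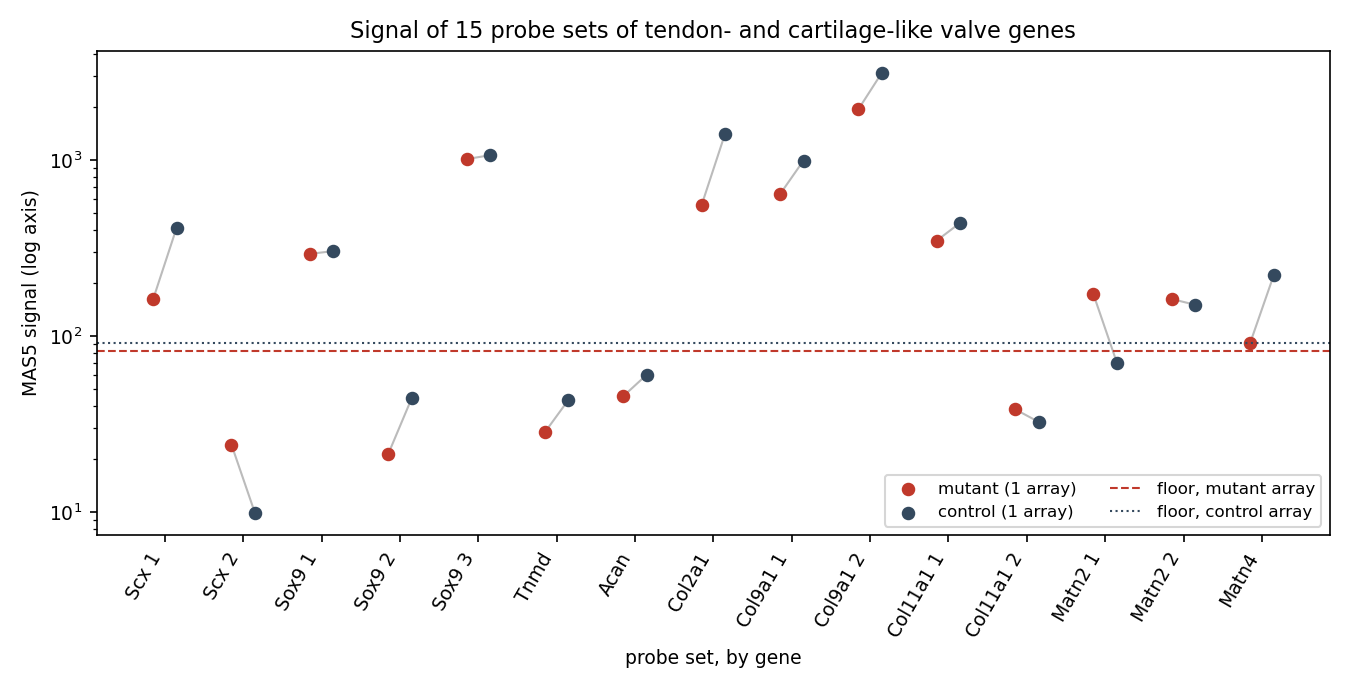
MAS5 signal (log axis) of the 15 probe sets of the 9 genes, with the mutant array to the left of the control array in each pair and the floors of both arrays as horizontal lines. Numbers after a gene name tell its probe sets apart. The pairs of Scx 1, Col2a1, Matn4 and both Col9a1 probe sets slope up to the control, those of Sox9 1 and Sox9 3 are nearly flat, and 5 pairs lie below both floors.

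Scx (gene ID 20289, probe set 1428983_at) read 161 in the mutant and 412 in the control. The control signal was 2.55-fold that of the mutant, a log2 ratio of -1.35. Scx fell in the class of genes with a mean signal from 200 to 1000, in which 1.37% of 4969 genes were at least 2-fold lower. In this class the log2 ratios of different probe sets of 1 gene had an SD of 0.39, an error that covers probes and not animals. The other Scx probe set, 1456291_x_at, read 24.2 in the mutant and 9.88 in the control, below the floor on both arrays, so the Scx difference rests on a single probe set.

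Sox9 (gene ID 20682) had 2 of its 3 probe sets above the floor, and both were nearly equal between the arrays. The brighter, 1451538_at, read 1014 in the mutant and 1065 in the control, a log2 ratio of -0.07. The other, 1424950_at, read 293 in the mutant and 304 in the control, at -0.05. For genes with a mean signal over 1000, probe sets of the same gene had an SD of 0.31, so these ratios lie well within probe error. The last Sox9 probe set read 21.3 in the mutant and 44.2 in the control, below the floor on both.

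Of the targets of these factors, Tnmd (gene ID 64103), the tendon membrane protein, read 28.4 in the mutant and 43.3 in the control. Acan (gene ID 11595), which encodes the large aggregating proteoglycan of cartilage, read 45.5 in the mutant and 60.4 in the control. Both genes have 1 probe set, and no fold is given for signals below the floor on both arrays. A difference was not detectable at this brightness. Whether either gene was expressed is not settled by these signals.

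Col2a1 (gene ID 12824), the chain of the main cartilage fibril, read 555 in the mutant and 1415 in the control on its single probe set. The mutant signal was 39.2% of control, a log2 ratio of -1.35, and Col2a1 lay in the same brightness class as Scx. Its difference was 3.49 times the SD between probe sets of that class, as was that of Scx.

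Col9a1 (gene ID 12839), a chain of the collagen on the surface of that fibril, was lower on both of its probe sets by nearly the same amount. Probe set 1428571_at read 1943 in the mutant and 3136 in the control, a log2 ratio of -0.69. Probe set 1421381_a_at read 639 in the mutant and 994 in the control, at -0.64. The mutant signals were thus 61.9% and 64.3% of control. The difference on the brighter probe set was 2.21 times the SD between probe sets in its class of mean signals over 1000, where 0.621% of 4347 genes were at least 2-fold lower. Which of the promoters printed above gave the transcripts that each probe set reads was not analysed here.

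Col11a1 (gene ID 12814), a chain of the collagen within the fibril, read 349 in the mutant and 440 in the control on probe set 1418599_at, a log2 ratio of -0.34. This is smaller than the SD of 0.39 between probe sets in its class. Its other probe set read 38.3 in the mutant and 32.5 in the control, below the floor on both arrays.

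The other chains of these cartilage collagens, of which Col9a2 was singled out after its value was seen, extend this group. Collagen IX is built from the products of Col9a1, Col9a2 and Col9a3. All 3 genes were lower in the mutant, where 51% of all measured genes were lower by any size. Col9a3 read 2126 in the mutant and 3386 in the control (log2 ratio -0.67), and its other measured probe set was at -0.41. Col9a2 read 178 in the mutant and 251 in the control, at -0.50 on its single measured probe set. Col11a2, the partner of Col11a1, read 16.1 in the mutant and 36.8 in the control, below the floor on both arrays.

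The matrilins, which bridge collagen fibrils and proteoglycans, had unlike ratios on these arrays. Matn4 (gene ID 17183) read 91.4 in the mutant and 222 in the control, a log2 ratio of -1.28 on its single probe set. The mutant signal stood just above the mutant floor of 82.4, in the class of mean signals under 200, where 4.52% of 1349 genes were at least 2-fold lower and the SD between probe sets was 0.49. With each array's median added as a pseudocount in place of the floor, Matn4 was at -0.85 and no longer at 2-fold.

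Matn2 (gene ID 17181) was not lower on either of its probe sets. Probe set 1455978_a_at read 162 in the mutant and 150 in the control, a log2 ratio of 0.11, within the probe error of its class. Probe set 1419442_at read 173 in the mutant, above the floor, and 70.3 in the control, below it. It was therefore at least 1.89-fold higher in the mutant, against the control floor. These probe sets thus differ in how large the Matn2 difference is, and the difference between Matn4 and Matn2 was not tested.

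**Figure D2:**
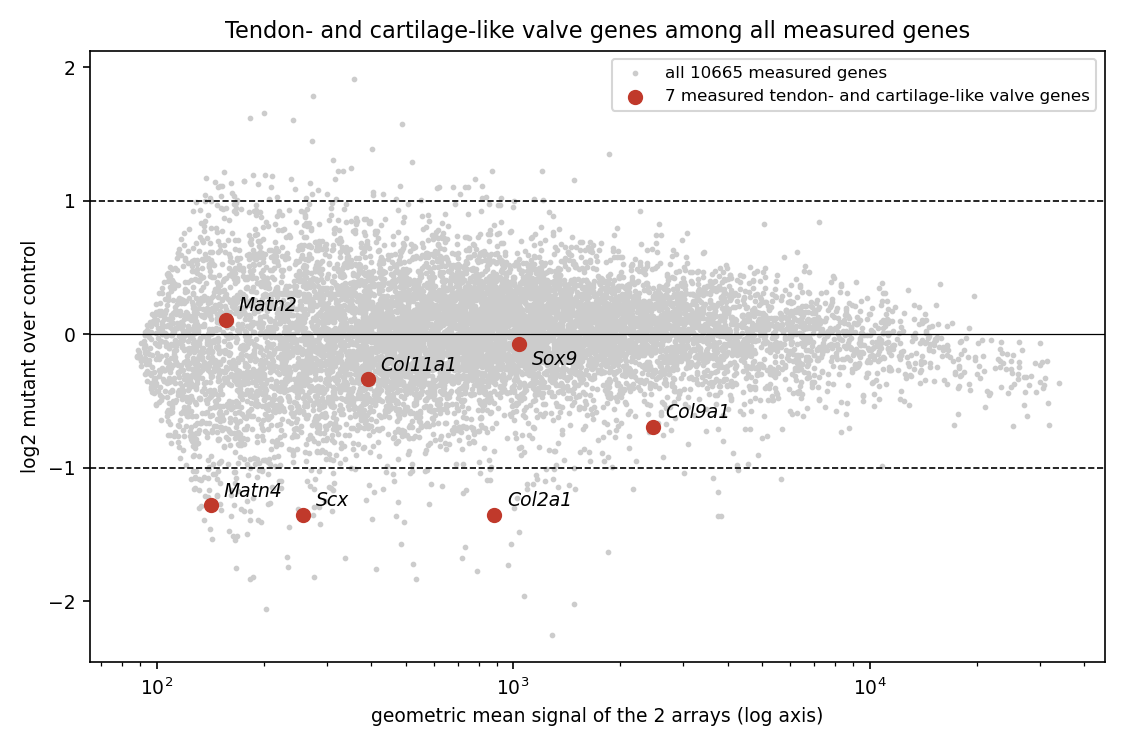
Log2 ratio of mutant over control against the geometric mean signal of the 2 arrays (log axis) for the 10665 measured genes in grey and the 7 measured tendon- and cartilage-like valve genes in red, with dashed lines at 2-fold. Scx, Col2a1 and Matn4 lie below the lower line, and Matn4 is among the dim genes, where the grey points spread most.

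Other genes of cartilage, in a list drawn up with earlier results of these data known, were also lower more often than higher. Of 30 further cartilage genes, 29 were on the array with a probe set of their own and 12 were measured, 9 of them lower and 3 higher in the mutant, and the median log2 ratio was -0.48 against -0.01 over all measured genes. Over all measured genes 51% were lower by any size and 1.46% at least 2-fold lower. At least 2-fold lower was 1 of the 12, Comp, which encodes a matrix protein of cartilage and tendon, with 191 in the mutant and 405 in the control (-1.08). The next by size were Cytl1, a secreted protein of chondrocytes, at -0.85, Trps1, a zinc finger repressor of chondrocyte maturation, at 0.68, Col9a3 at -0.67 and Pth1r, the receptor of parathyroid hormone and its related peptide, at -0.66. The list median depended on the handling of dim genes, and stood at -0.15 with the floor at the 25th or at the 75th percentile.

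The partners of Sox9 were lower although Sox9 was nearly level. Sox5 read 401 in the mutant and 607 in the control (-0.60), and its 5 other measured probe sets lay between -1.02 and -0.25. Sox6, named after its value was seen, read 265 in the mutant and 366 in the control (-0.47), with its 2 other measured probe sets between -1.29 and -0.39. All measured probe sets of both genes were therefore below 0. Hapln1, the link protein that fastens proteoglycans to hyaluronan and likewise singled out afterwards, was bright, with 9394 in the mutant and 8878 in the control (0.08), while its 3 other measured probe sets lay between -0.30 and -0.17.

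Tendon genes were mostly lower as well, in a list drawn up with earlier results of these data known. Of 31 further tendon gene symbols, 29 were on the array and 22 were measured, 19 lower and 3 higher in the mutant. Their median log2 ratio was -0.48. Ctgf and Ccn2 among the symbols name the same gene, which was measured as Ccn2. At least 2-fold lower were 2 of the 22, against 1.46% of all measured genes, of which 51% were lower by any size. Lum, which encodes the fibril-binding proteoglycan lumican, read 736 in the mutant and 2989 in the control (-2.02). Thbs2, an adhesive matrix glycoprotein, read 142 in the mutant and 313 in the control (-1.14), with its other measured probe set at -0.97. The next by size were the growth factor Tgfb2 at -0.95, which promotes Scx expression in limb tendon, the zinc finger factor Egr2 at -0.85, the fibril-associated collagen gene Col14a1 at -0.83, and Spry1, a feedback inhibitor of FGF signalling, at -0.74. The other measured Col14a1 probe sets lay between -0.05 and 0.55, so its ratio was not shared by its probe sets. Kera, the keratocan gene, and Mkx, a homeobox factor of tendon, also named after their values were seen, were below the floor on both arrays.

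**Figure D3:**
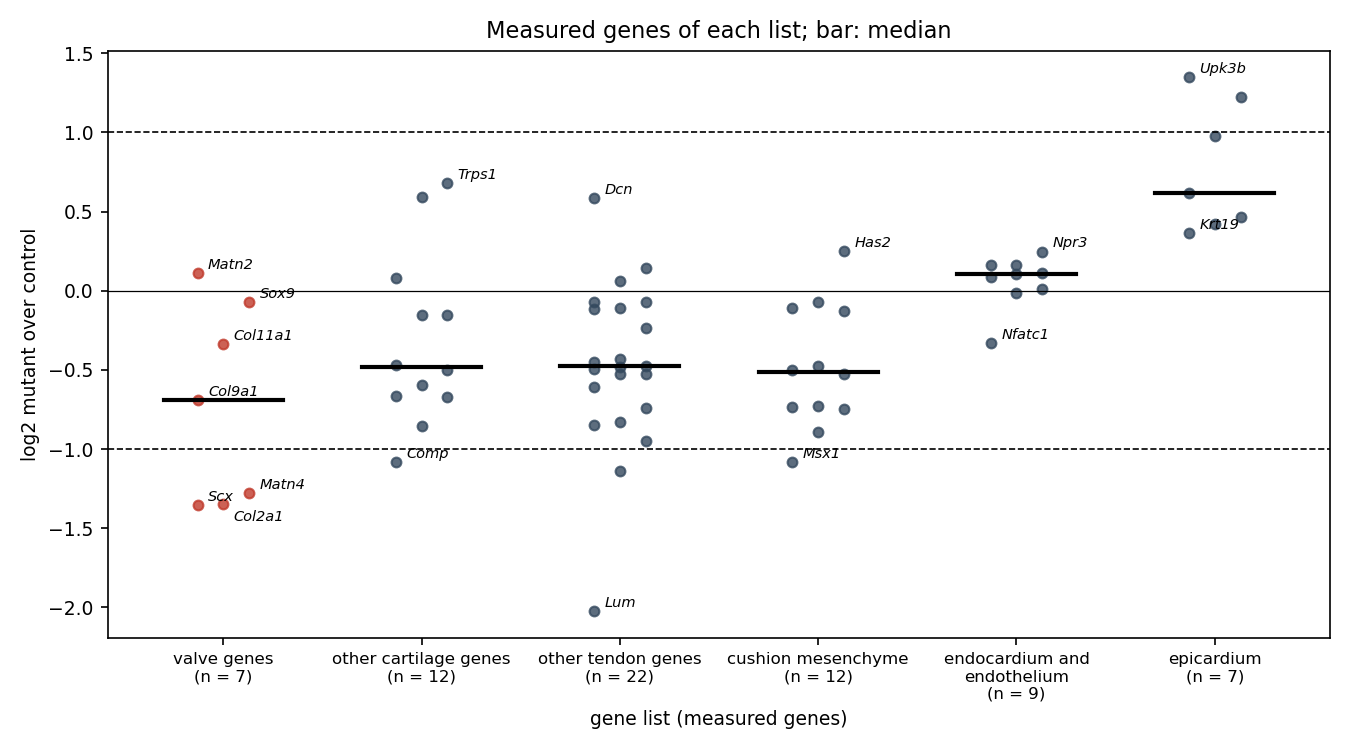
Log2 ratio of mutant over control of each measured gene in the tendon- and cartilage-like valve genes (red), 2 wider lists and 3 lists of cell type markers, with the median of each list as a bar and dashed lines at 2-fold. The medians are -0.69 for the valve genes, -0.48 for other cartilage and other tendon genes, -0.51 for cushion mesenchyme, 0.11 for endocardium and endothelium and 0.62 for epicardium.

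Markers of the cushion mesenchyme, the cell type that makes most of this matrix, were lower in the same array. All 12 markers were measured, 11 lower and 1 higher, where 51% of all measured genes were lower by any size. They had a median log2 ratio of -0.51 and ranged from -1.08 to 0.25. Their summed signal was 52467 in the mutant and 68207 in the control. Col1a1 and Col3a1 among them are also in the tendon list. Their brightest genes were Col3a1 at -0.07 and the proteoglycan gene Vcan at -0.50. In a bulk sample fewer mesenchymal cells and less RNA per cell cannot be told apart. Against the median of these markers, the log2 ratios of Scx and Col2a1 stood at -0.84, that of Matn4 at -0.77 and that of Col9a1 at -0.18. The ratio of Col11a1 stood above that median by 0.17, that of Sox9 by 0.44 and that of Matn2 by 0.62. The 3 genes at 2-fold and Col9a1 were thus below the mesenchymal median and the other 3 above it, and no test of these differences was possible.

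Markers of the lineage's endothelial part had a median of 0.11, with 9 of 9 measured. Of these, 7 were higher and 2 lower, where 51% of all measured genes were lower by any size. The summed signal of the 9 was 58040 in the mutant and 55022 in the control. Emcn and Cdh5, which encode endothelial surface proteins, were the brightest of these markers, at 0.11 and 0.01. The ends of the list, named after their values were seen, were Nfatc1 at -0.33 and Npr3 at 0.25. The 4 other measured Nfatc1 probe sets lay between -1.58 and 0.16, and the 2 of Npr3 were at 0.50 and 0.53. Skeletal cartilage, which makes Col2a1 and Comp, lies outside the Tie2Cre lineage, and its part in these values was not tested. Of 8 markers of hypertrophic and skeletal cartilage, 6 were below the floor on both arrays, among them Col10a1, Matn1, Matn3 and Ihh. Only Comp was measured, and Ucma was above the floor in the mutant only, at 103 in the mutant and 47.2 in the control. The summed signal of the 8 was 444 in the mutant and 649 in the control, to which Comp gave 191 in the mutant and 405 in the control. Col10a1 and the other hypertrophic markers in this list are of a late stage, and the part of early cartilage was not tested.

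Neural crest also reaches the outflow cushions and expresses Sox9, and it too lies outside the lineage that was sorted. Of 9 crest and Schwann cell markers, 6 were on the array and 2 measured, Ednrb at 0.84 and Erbb3 at -0.30, both also expressed in other cells of the heart. Sox10, a defining factor of the crest, read 64.3 in the mutant, below the floor, and 137 in the control, at least 1.66-fold lower in the mutant against that floor. Foxd3, Tfap2a and Tfap2b were below the floor on both arrays. The summed signal of the 6 was 10583 in the mutant and 6632 in the control, most of it from Ednrb.

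Markers of other cells outside the lineage, of smooth muscle and pericytes, and of cells the sort removes gave signal too. All 7 measured epicardial markers of 9 were higher in the mutant, where 51% of all measured genes were lower by any size. They had a median of 0.62 and a summed signal of 8608 in the mutant and 4930 in the control. Tcf21 at 0.47 and Upk3b at 1.35 led them in brightness. Of 8 myocardial markers, 7 were measured, 3 lower and 4 higher, with a median of 0.08. Their sum was 16501 in the mutant and 13114 in the control, with Myl7 at 0.83 and Myl2 at 0.32 as the brightest. Smooth muscle and pericyte markers had 6 of 7 measured, 4 lower and 2 higher, and a median of -0.10. Their sums were 9894 in the mutant and 11252 in the control, with Acta2 at -0.16 and Pdgfrb at -0.35 as the brightest. Erythroid markers, of cells the sort removes, had 4 measured of the 6 on the array, 3 lower and 1 higher, and a median of -0.77. Their sums were 7998 in the mutant and 11646 in the control. Most of this signal came from Hbb-y at -0.58, with Hba-x next in brightness at -0.97. Leukocyte markers had 1 of 6 measured, Cd68 at 0.79, and sums of 370 in the mutant and 513 in the control. Cx3cr1 and Csf1r were above the floor in the control only: Cx3cr1 read 47.8 in the mutant and 226 in the control, at least 2.74-fold lower in the mutant, and Csf1r 80.6 in the mutant and 144 in the control. Ptprc, which encodes CD45, was below the floor on both arrays. The part of these cells in the values of the tendon- and cartilage-like genes was not tested.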

How the data were processed

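The deposited values are signal intensities of 45101 probe sets on 1 mutant and 1 control array, made by the authors with MAS5 per the submitters' processing notes. A mean that leaves out 2% of probe sets at either end was 500 on both arrays, as 1 scaling factor per array gives. The sources used here do not give the MAS5 version and settings. MAS5 subtracts mismatch signal, which makes ratios of dim probe sets noisy. Names came from the platform annotation: 34945 probe sets named 1 gene, 932 several and 9160 were unlisted, and 34741 of the single-gene probe sets matched RefSeq by gene identifier. Signals were put on the log2 scale with a floor at each array's median. With 1 array per genotype no p-value or standard error was computed, and the number of arrays limits the precision. A difference of 2-fold in size was counted. Named were all 9 genes, up to 6 measured genes of each wider list by size of ratio, the 2 brightest of each marker list, and Tbx20. Genes, lists and rules were chosen with earlier results of these data known. The alternatives were another scaling, quantile or loess normalization (span 0.3), other floors (25th and 75th percentile), a pseudocount, other choices of probe set, and folds of 1.5 and 3. Steps were tested on simulated data. Python 3.11.15, pandas 2.3.3 and statsmodels 0.14.6 were used.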

Additional observations from a re-analysis of the deposited data

How the results depend on the processing

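All 7 measured genes kept their sign under every alternative that gave them a value. Scx ranged from -1.35 to -1.04, Col2a1 from -1.39 to -1.24, Matn4 from -1.28 to -0.85, Col9a1 from -0.72 to -0.66, Col11a1 from -0.34 to -0.30, Sox9 from -0.12 to -0.06 and Matn2 from 0.02 to 0.21 on the log2 scale. The count at least 2-fold lower was 3 of 7 under scaling, quantile and loess normalization and the median over probe sets, and 3 of 9 with the lower floor. It was 2 of 9 with a pseudocount, and 2 of 5 with unsuffixed probe sets, where Col2a1 and Matn2 gave no value. It was 1 when the floor was the 75th percentile, which left 3 genes measured. At least 1.5-fold lower were 4 of 7, and at least 3-fold lower 0. The share of all measured genes was taken only at 2-fold in the main setting, so none stands beside these counts. The count at least 2-fold higher was 0 in all 10 alternatives. With a pseudocount, which lets Tnmd and Acan in, the median of the 9 genes was -0.30, Tnmd was at -0.28 and Acan at -0.25. With the floor at the 25th percentile Tnmd was at -0.61 and Acan at -0.41. For the further lists and Tbx20, the alternatives were chosen after seeing the data. The median of the other cartilage genes was -0.15 with the floor at the 25th or 75th percentile, -0.18 with a pseudocount and -0.34 with unsuffixed probe sets, and the number of genes measured changed in the first 3 of these settings, to 21, 3 and 29 against 12. That of the other tendon genes ranged from -0.48 to -0.43, and the Tbx20 ratio from -0.25 to -0.21. No paired analysis was possible because each genotype has 1 array, and none could be left out in turn. Dim signal limits what can be said of Tnmd, Acan, Matn2 and Matn4. Scx and Col11a1, like these genes, gave no value with the floor at the 75th percentile.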

Other observations

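Matrix genes of the wider lists and of the cushion markers, and the factor Trps1, all named here after their values were seen, had ratios of both signs. Hapln3, a link protein of the same family as Hapln1, read 227 in the mutant and 151 in the control, a log2 ratio of 0.59. Dcn, the small proteoglycan decorin, read 2096 in the mutant and 1395 in the control (0.59), whereas its relative Bgn, or biglycan, read 5250 in the mutant and 8010 in the control (-0.61). Fmod, or fibromodulin, read 1334 in the mutant and 1919 in the control (-0.53), and its 5 other measured probe sets lay between -2.49 and -0.24. Has2, the enzyme that makes the hyaluronan of the cushions, was at 0.25, and at 0.19 on another probe set. Trps1 at 0.68 had its 2 other measured probe sets at 0.10 and 0.20.

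Genes that respond to FGF signalling, which promotes Scx expression in chick tendon progenitors, were read in the same arrays. Etv4 was at -0.11 and Etv5 at 0.15, both ETS factors induced by FGF, while the feedback inhibitors Spry1 and Spry2 were at -0.74 and -0.45. The ligand genes Fgf4 and Fgf8 were below the floor on both arrays.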
